A study of Mus musculus with 23 samples.

Results

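Microglia from the striatum of mice that had gone 21 days without methamphetamine (Abstinence) were compared with microglia isolated right after the last session of taking it (Maintenance). The comparison covered 7 Abstinence and 8 Maintenance libraries, 15 of the 23 libraries of the series, and every gene in the count table. All mice were male C57BL/6J, 9 weeks old per the labels, and pressed a lever for intravenous infusions in 15 daily sessions of 2 hr. Maintenance and Abstinence mice received methamphetamine hydrochloride at 0.05 mg/kg per infusion, and the 8 Saline libraries, used here as background levels, came from mice that received saline and were also collected right after the last session. Abstinence was forced and spent in the home cage. No group of the series took saline and then waited 21 days, so time since the drug, greater age and the lack of a session on the day of isolation cannot be told apart. The labels do not say whether each library came from a separate animal, so p-values measure the spread between libraries, nor do they give the hour at which each library was isolated. Which cells were gathered is given only as microglia, with the tissue recorded as neuronal.

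Microglia are the resident macrophages of the brain. They clear debris, prune synapses and answer injury with inflammatory signals, and they keep a circadian clock of their own. Methamphetamine releases dopamine, and the striatum is a main target of the dopamine neurons. The comparison asked what in these cells differs between the end of drug taking and a long period without the drug.

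Total counts per library were 54.97 to 94.6 M (1e6) in Maintenance and 71.2 to 94.8 M in Abstinence. Defining microglial genes were abundant in both groups. Tmem119 measured 3195 to 4522 counts per 1e6 counts (CPM, scaled by TMM factors) in Maintenance and 3377 to 4052 CPM in Abstinence, and the summed level of 22 homeostatic microglia genes ran from 69034 to 101297 CPM and from 86568 to 99382 CPM. An average of 14958.5 ± 1591 genes had a count in Maintenance and 16277 ± 737 in Abstinence (SD; difference 1318 genes, two-sided exact permutation p = 0.0614, adjusted over 4 library measures p = 0.246). Replicates 6 and 7 had the fewest genes among the Maintenance libraries, 12459 and 12740. Maintenance 8 stood apart in another way. Its 15 markers of choroid plexus and ependymal cells, the cells that line the ventricles, summed to 76552 CPM, against 107.5 to 339.5 CPM in the other 7 Maintenance libraries and 109 to 389 CPM in Abstinence. Results are therefore given with and without these 3 libraries where they change.

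**Figure D1:**
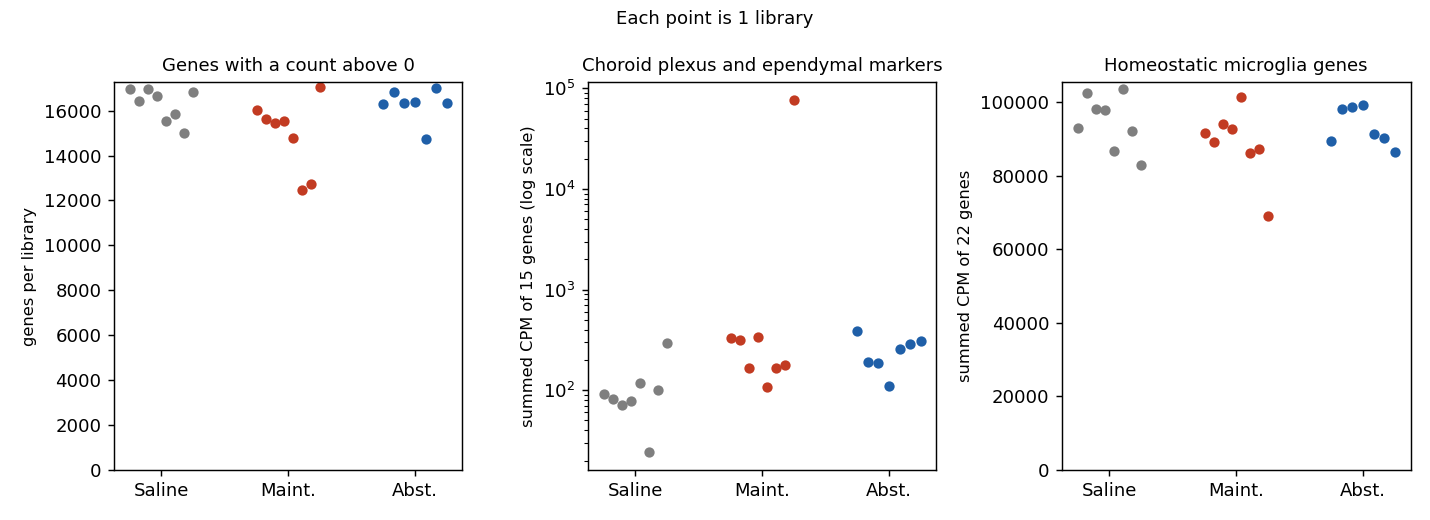
Each point is 1 library of the Saline, Maintenance or Abstinence group. From left to right the vertical axes give the number of genes with a count, the summed CPM of 15 choroid plexus and ependymal markers on a log scale, and the summed CPM of 22 homeostatic microglia genes. Maintenance 6 and 7 are lowest on the left (12459 and 12740 genes), and Maintenance 8 stands alone in the middle at 76552 CPM.

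Of 16121 genes tested, 153 changed between Maintenance and Abstinence, or 0.949% (edgeR's quasi-likelihood test fitted on all 23 libraries, Benjamini-Hochberg adjusted p under 0.05). Adjusted p-values of single genes come from this fit unless another is named. Words such as rose, fell, higher and lower describe Abstinence relative to Maintenance, not relative to Saline. In Abstinence 64 were higher (0.397% of genes tested) and 89 lower (0.552%). An unadjusted p under 0.05 was reached by 1769 genes. Most differences were modest, with 7 of the higher and 11 of the lower genes changed over 2-fold, and median log2 fold changes (Abstinence minus Maintenance) of 0.63 and -0.51 among the called genes. Over all genes tested the median was 0.01. The groups did not overlap in CPM for 22 of the higher and 26 of the lower genes, and over all genes tested for 65, or 0.403%. The Abstinence libraries lay above the Maintenance median in 7 of 7 for 55 of the higher genes, and below it in 7 of 7 for 80 of the lower.

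Without Maintenance 8, 265 genes changed, 180 of them lower, and 146 of the 265 were among the 153. The count was 89 without Abstinence 3, 92 without Abstinence 4 and 100 without Abstinence 7. Without Maintenance 6 and 7 it was 163, of which 106 were among the 153, and without Maintenance 6, 7 and 8 it was 199, of which 96 were. Of the 57 called genes described here by their role, 11 were not called without Maintenance 6 and 7 and 13 without Maintenance 6, 7 and 8. They were Cat, Eif3c, Gusb, Hnrnpm, Hsp90ab1, Ifit3, Pfkl, Phgdh, Pik3c3 and Tef in both cases, P4ha1 without the first pair, and Cap1, Cct4 and Ptbp1 without all 3.

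**Figure D2:**
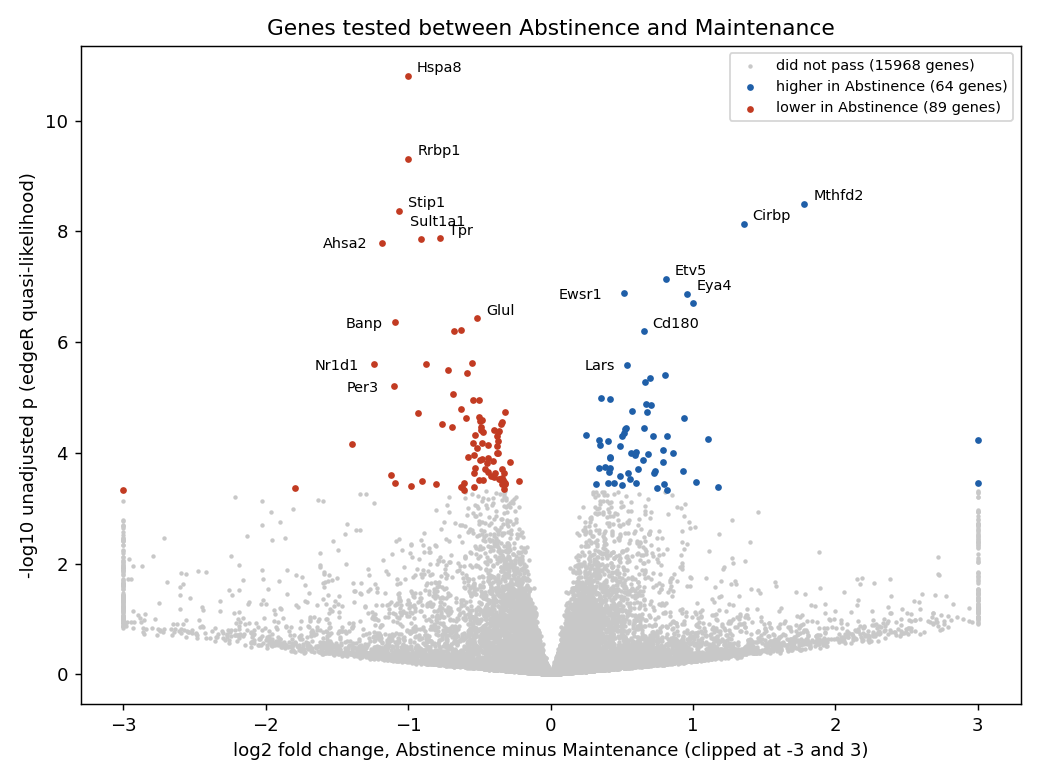
Each point is 1 of 16121 genes, with the log2 fold change (Abstinence minus Maintenance) on the horizontal axis and -log10 of the unadjusted p on the vertical axis. Blue marks the 64 genes higher in Abstinence, led by Mthfd2 and Cirbp, and red the 89 lower, led by Hspa8 and Rrbp1. Genes beyond 3 in size are drawn at the edge.

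Among chaperones, Hspa8 and 5 of 10 genes of the Hsp90 system fell in Abstinence, and heat-inducible members did not pass. These proteins fold new or damaged proteins. Hsp70 takes up unfolded chains with J-domain helpers, Hop hands them to Hsp90, and other co-chaperones set the pace of the Hsp90 cycle. Hspa8 (chromosome 9, 40801276 to 40805202, GRCm38.p6) encodes the constitutive Hsp70. It measured 1455 to 2211 CPM (median 1710) in Abstinence and 2815 to 4128.5 CPM (median 3446) in Maintenance. The groups did not overlap, and the Saline libraries (1542 to 2102 CPM) lay where the Abstinence libraries did. The level fell by 1.00 ± 0.09 on the log2 scale (SE; edgeR adjusted p = 2.51e-07), the smallest p of all genes tested. Stip1 (chromosome 19, 7020696 to 7040026), which encodes Hop, measured 44.2 to 75.9 CPM (median 59.9) in Abstinence and 100.1 to 179.8 CPM (median 121) in Maintenance. Again no library of one group reached the range of the other, and the log2 fold change was -1.07 ± 0.12 (adjusted p = 1.72e-05). Ahsa2 (chromosome 11, 23487882 to 23498045), named for its likeness to the activator of the Hsp90 ATPase, measured 15.5 to 24.3 CPM (median 16.4) against 32.9 to 55.5 CPM (median 41.9). The groups were separate here too (-1.18 ± 0.15, adjusted p = 3.24e-05), and the Saline median was 15.2 CPM.

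Chordc1 (chromosome 9, 18292267 to 18314000), an Hsp90 co-chaperone, measured 69.2 to 127 CPM (median 91.5) in Abstinence and 120 to 176 CPM (median 152) in Maintenance. The ranges touched at their edges, with all 7 Abstinence libraries below the Maintenance median (-0.72 ± 0.12, adjusted p = 0.0023). Saline had a median of 74.3 CPM. Fkbp4 (chromosome 6, 128430103 to 128438656), a co-chaperone that escorts steroid hormone receptors, measured 120 to 158 CPM against 169 to 234.5 CPM, with no overlap (-0.51 ± 0.09, adjusted p = 0.00564). Cacybp (chromosome 1, 160202367 to 160212892), whose protein shares a fold with Hsp90 co-chaperones, was separate as well, at 63.8 to 87.8 CPM against 100.3 to 141 CPM (-0.63 ± 0.10, adjusted p = 0.000608). The constitutive Hsp90 gene Hsp90ab1 fell by 0.53 ± 0.12 (adjusted p = 0.0297), from a Maintenance median of 1375 CPM to 938 CPM, with overlapping ranges. That call ended without Maintenance 4 or without Abstinence 3, 4, 5, 6 or 7 (adjusted p 0.0537 to 0.0878).

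All gene lists used here were chosen with earlier results of these data known. A count beside the share of all genes (0.397% higher, 0.552% lower) therefore describes a list and does not test it. Of 10 genes listed for Hsp90 and its co-chaperones, 5 fell and 0 rose, set beside 0.552% lower among all genes tested. All 10 had a fold change below 0 (median log2 -0.42). The count was 4 without Maintenance 6 and 7, and 5 without Maintenance 6, 7 and 8. Of 13 genes of the constitutive Hsp70 machinery 1 fell, Hspa8 (median -0.17). Its partners Hsph1, a nucleotide exchange factor, and Dnaja1, a J-domain protein, did not pass. Hsph1 measured 34.5 to 110.0 CPM in Abstinence and 61.7 to 105 CPM in Maintenance (-0.38 ± 0.17, adjusted p = 0.371). Dnaja1 measured 139 to 236 CPM and 207 to 274 CPM (-0.38 ± 0.11, adjusted p = 0.0809). Both therefore overlapped between the groups, as Hspa8 did not. The level of Hsph1 in Saline was 33.5 CPM at the median, with a difference between Abstinence and Saline of 1.00 on the log2 scale (adjusted p = 0.0196), and that of Dnaja1 0.59 (adjusted p = 0.0433). The comparisons with Saline share the Abstinence libraries and are given side by side only.

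Heat-inducible chaperones, the ones strongly raised by acute stress, gave 0 calls among 11 genes, with 6 above and 5 below 0 (median log2 0.05). Hspa1a measured 381 to 1814 CPM (median 1127) in Abstinence and 444.5 to 927 CPM (median 755) in Maintenance (0.59 ± 0.25, adjusted p = 0.37). Reads of Hspa1a and its near-identical copy Hspa1b may not be assigned apart. Bag3, a co-chaperone that couples Hsp70 to autophagy, measured 33.0 to 77.5 CPM against 17.4 to 41.0 CPM (0.68 ± 0.18, adjusted p = 0.0575). The groups overlapped in both genes. Among 10 genes of the TRiC and mitochondrial chaperonins 1 fell (background 0.552%), Cct4 (-0.35 ± 0.08, adjusted p = 0.0391), a subunit of the ring that folds actin and tubulin. That call ended without Maintenance 4 or without Abstinence 1, 2, 3, 4, 6 or 7 (adjusted p 0.0565 to 0.0823). In the endoplasmic reticulum 1 of 20 genes fell (background 0.552%), Hspa5, which encodes BiP, the resident Hsp70 there. It measured 1907 to 2571 CPM in Abstinence and 2456 to 3361 CPM in Maintenance (-0.37 ± 0.08, adjusted p = 0.0146), with a median of -0.06 over the list.

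Heat shock factor binds repeats of GAA and TTC, and Chordc1 and Fkbp4 are shown because they were the called chaperone genes whose promoter window held such repeats. Sequences are RefSeq's for GRCm38.p6, 5′ to 3′ on the strand of the gene, from 250 bases before the start site to 50 after it. Among 54 tested chaperone genes with an entry, 5 held the 3-unit motif on either strand, GAANNTTC followed by NNGAA, (Chordc1, Dnajb6, Hspd1, Hspe1 and Hsph1) and 14 the 2-unit motif GAANNTTC alone or within it. Over all 27025 genes with an entry the shares were 0.662% and 9.04%. A gene with several windows was counted if any of them held the motif. Of the 8 chaperone genes that changed, 5 had an entry. In Chordc1 (chr9:18292017-18292316, plus strand) the capitals mark 3 overlapping matches of the 3-unit motif across the start site, and in Fkbp4 (chr6:128438607-128438906, minus strand) 1 match of the 2-unit motif that begins at -151.
Chordc1: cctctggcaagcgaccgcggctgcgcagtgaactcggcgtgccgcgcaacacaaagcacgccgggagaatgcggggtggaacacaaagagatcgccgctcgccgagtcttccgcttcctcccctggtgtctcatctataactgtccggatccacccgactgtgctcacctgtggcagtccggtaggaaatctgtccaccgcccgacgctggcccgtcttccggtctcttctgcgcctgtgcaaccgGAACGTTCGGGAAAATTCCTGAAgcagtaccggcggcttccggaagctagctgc
Fkbp4: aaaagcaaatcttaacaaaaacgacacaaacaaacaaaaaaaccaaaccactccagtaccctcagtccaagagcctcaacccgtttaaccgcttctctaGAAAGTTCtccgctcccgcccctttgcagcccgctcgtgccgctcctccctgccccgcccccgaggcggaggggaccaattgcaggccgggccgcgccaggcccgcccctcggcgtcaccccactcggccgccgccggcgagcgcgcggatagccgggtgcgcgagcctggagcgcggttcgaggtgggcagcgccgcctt

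The match is a description of the letters. It was present alike in Hsph1 and Dnajb6, which did not pass, and in Chordc1, which did.

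**Figure D3:**
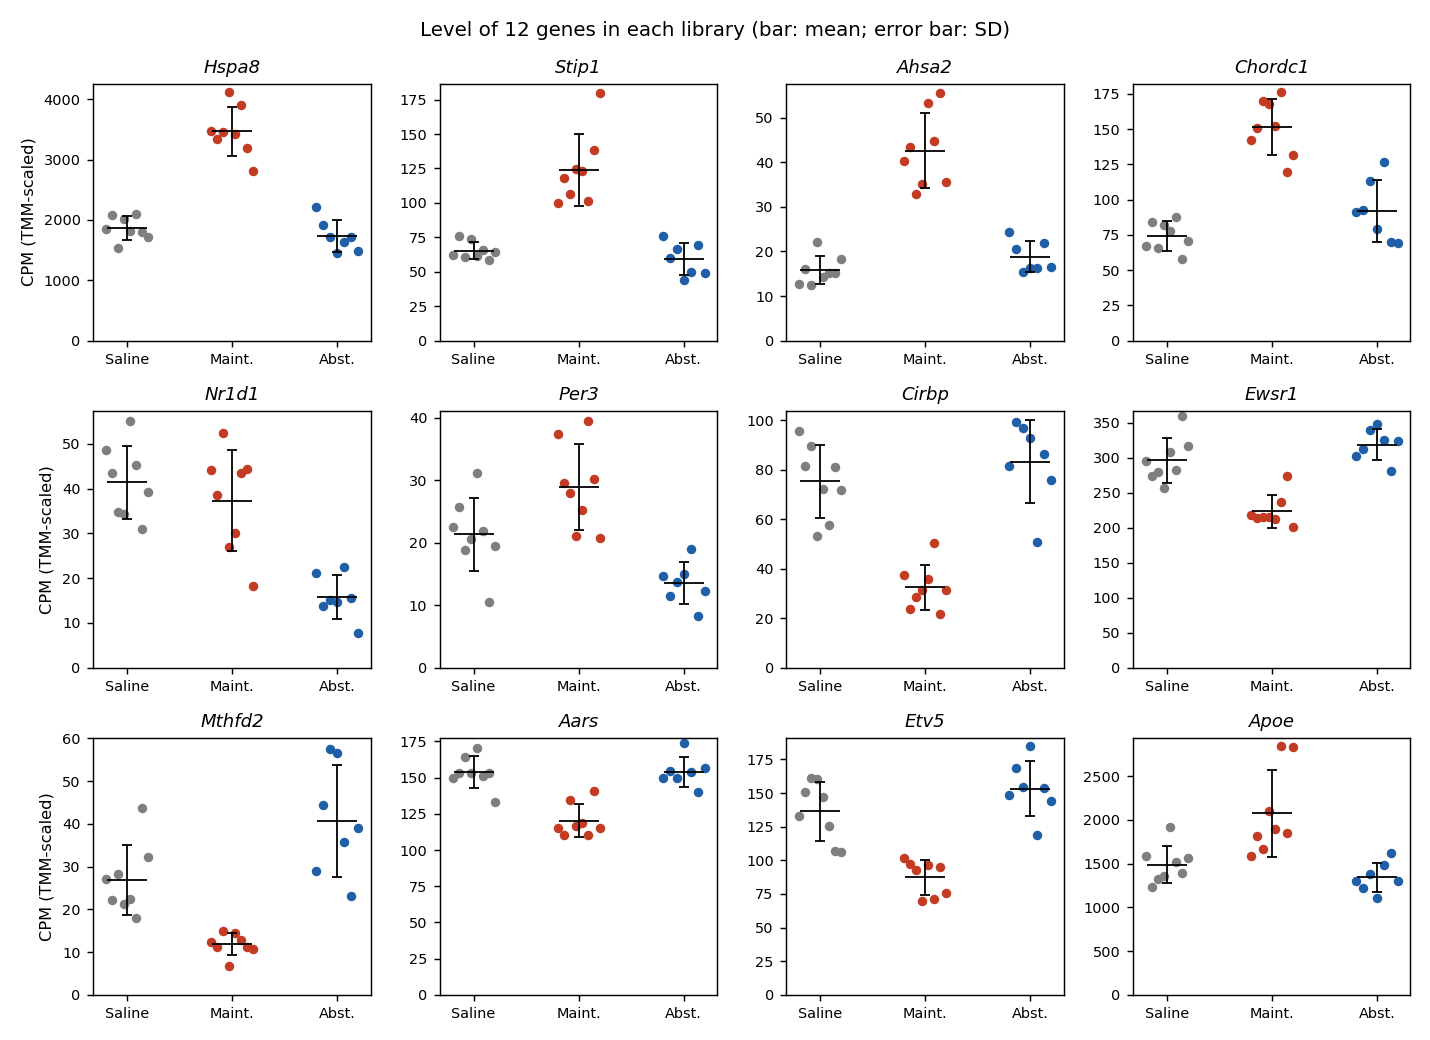
CPM (scaled by TMM factors) of 12 genes in each of 8 Saline (grey), 8 Maintenance (red) and 7 Abstinence (blue) libraries, with the mean as a bar and the SD as the error bar. For Hspa8 the Abstinence libraries sit between 1455 and 2211 CPM, below all Maintenance libraries, while Mthfd2 and Cirbp lie above them.

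Of 22 circadian clock genes, 4 fell in Abstinence (background 0.552%) and 18 did not pass. In this clock the activators BMAL1 and CLOCK drive Per, Cry and Rev-erb genes, Rev-erb proteins repress Bmal1 in turn, and the factors DBP, TEF and HLF act through a further DNA motif, the D-box. Nr1d1 (chromosome 11, 98767932 to 98775377), which encodes the repressor Rev-erb alpha, measured 7.78 to 22.5 CPM (median 15.2) in Abstinence and 18.3 to 52.5 CPM (median 41.0) in Maintenance. The ranges overlapped because Maintenance 8, at 18.3 CPM, lay below 2 Abstinence libraries, and the log2 fold change was -1.24 ± 0.21 (adjusted p = 0.00195). Saline libraries had a median of 41.4 CPM, and Abstinence differed from Saline by -1.39 (adjusted p = 0.00676) where Maintenance differed by -0.15 (adjusted p = 0.87). Nr1d1 shares its locus with Thra, which did not pass (adjusted p = 0.927). The second Rev-erb gene, Nr1d2 (chromosome 14, 18204056 to 18239106), measured 44.4 to 73.5 CPM against 75.5 to 123 CPM, with no overlap (-0.70 ± 0.14, adjusted p = 0.0113).

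Per3 (chromosome 4, 150997018 to 151044707), a period protein of the repressor complex, measured 8.31 to 19.0 CPM (median 13.7) in Abstinence and 20.7 to 39.5 CPM (median 28.8) in Maintenance. The groups were separate, and Saline lay between them with a median of 21.2 CPM (Abstinence against Maintenance -1.10 ± 0.20, adjusted p = 0.00373). Tef, a D-box activator, fell by 0.62 ± 0.15 (adjusted p = 0.0463). Its call was the least firm of the clock genes, since leaving out any 1 of 11 libraries ended it (Saline 1 and 3, Maintenance 1, 6 and 7, and all of Abstinence but replicate 5, adjusted p 0.0506 to 0.115). Dbp, a close relative of Tef, measured 1.36 to 8.08 CPM in Abstinence and 7.33 to 20.8 CPM in Maintenance and missed the threshold (-1.34 ± 0.34, adjusted p = 0.0517). Arntl, which encodes BMAL1, measured 7.87 to 21.1 CPM against 0 to 17.02 CPM (1.20 ± 0.55, adjusted p = 0.405). Period gene Per1 stood at 9.49 to 20.1 and 12.7 to 25.8 CPM (-0.44 ± 0.17, adjusted p = 0.267).

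Over the 22 clock genes, 0 rose, 17 had a fold change below 0 and 5 above, with a list median of -0.44. The number that fell was 3 without Maintenance 6 and 7, and 3 without Maintenance 6, 7 and 8 (median then -0.21). The hour of isolation is not given for any library and was not tested. Glucocorticoid-responsive genes, which follow the daily and stress-driven rise of corticosterone, were also covered. Of 16 genes 1 fell (background 0.552%), Tsc22d3, which encodes the anti-inflammatory protein GILZ. It measured 504 to 746.5 CPM in Abstinence and 741 to 1226 CPM in Maintenance (-0.55 ± 0.12, adjusted p = 0.0152). Fkbp5, the glucocorticoid-induced co-chaperone that damps the receptor, measured 26.9 to 49.0 CPM and 38.1 to 80.8 CPM (-0.64 ± 0.19, adjusted p = 0.0978). The list's median was -0.32.

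The 4 clock genes that fell all had a promoter entry, and Per3 is shown because it alone among the 17 tested clock genes with an entry held the D-box letters TTATGTAA or TTACGTAA on either strand, which 1.23% of all genes with an entry held. In Per3 (chr4:151044616-151044915, minus strand, RefSeq, GRCm38.p6) the capitals mark both matches, which begin at -205 and -158 from the start site.
Per3: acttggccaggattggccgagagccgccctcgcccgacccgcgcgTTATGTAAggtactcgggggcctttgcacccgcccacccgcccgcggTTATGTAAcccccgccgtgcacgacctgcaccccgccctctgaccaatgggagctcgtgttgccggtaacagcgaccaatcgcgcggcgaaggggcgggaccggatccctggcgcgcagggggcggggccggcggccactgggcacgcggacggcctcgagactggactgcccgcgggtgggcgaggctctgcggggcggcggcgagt

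The E-box CACGTG, which BMAL1 and CLOCK bind, was found in the windows of 5 of these 17 genes (Bhlhe41, Ciart, Cry1, Per1 and Tef), and 8.09% of all genes with an entry held it. Of the genes that fell, Tef held it.

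RNA-binding proteins went in both directions. Cirbp (chromosome 10, 80165990 to 80172786), an RNA-binding protein made in response to mild cold, measured 50.7 to 99.2 CPM (median 86.6) in Abstinence and 21.8 to 50.6 CPM (median 31.4) in Maintenance. The groups just failed to meet, and Cirbp rose 2.56-fold (log2 1.36 ± 0.16, adjusted p = 2.37e-05). Saline libraries had a median of 76.7 CPM. Maintenance differed from Saline by -1.21 (adjusted p = 7.37e-05) where Abstinence differed by 0.14 (adjusted p = 0.999). The other cold-inducible gene listed, Rbm3, measured 49.5 to 84.5 CPM and 34.9 to 61.2 CPM, with overlap (0.43 ± 0.13, adjusted p = 0.119). Ewsr1 (chromosome 11, 5069687 to 5099107), an RNA-binding protein that acts in transcription and splicing, had separate groups, at 281.5 to 347.5 CPM against 200.3 to 274 CPM (0.51 ± 0.07, adjusted p = 0.000197).

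Of 32 listed SR proteins, hnRNPs and other RNA-binding proteins of splicing, 5 rose and 1 fell (background 0.397% and 0.552%). Yet 19 had a fold change below 0 and the median was -0.07. The sign of the median therefore differed from that of most calls. Ewsr1 was among the higher genes, and Srsf5 rose from 71.0 to 122 CPM in Maintenance to 125 to 161 CPM in Abstinence, with no overlap (0.57 ± 0.11, adjusted p = 0.00773). Hnrnpk, a poly(C)-binding regulator, was at 1020 to 1260 CPM in Maintenance and 1242 to 1431 CPM in Abstinence (0.25 ± 0.05, adjusted p = 0.0127), and did not pass when the Saline libraries were left out of the fit (0.0634). Ptbp1, a repressor of exon inclusion, rose by 0.41 ± 0.10 (adjusted p = 0.033), and Hnrnpm fell by 0.34 ± 0.08 (adjusted p = 0.0426). Neither held throughout. Ptbp1 was lost without Maintenance 4 or 6 or Abstinence 2, 3, 4, 6 or 7 (adjusted p 0.0531 to 0.106), and Hnrnpm without Maintenance 4, 6 or 7 or Abstinence 2, 3, 4, 6 or 7 (0.0501 to 0.119). Without Maintenance 6, 7 and 8 the list had 4 higher and 0 lower.

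Several lower genes serve steps before and after splicing. Acin1 (chromosome 14, 54642161 to 54686965), part of a complex at exon junctions, measured 21.9 to 33.8 CPM in Abstinence and 41.5 to 47.5 CPM in Maintenance (-0.68 ± 0.10, adjusted p = 0.000608). Tpr (chromosome 1, 150392802 to 150449935), the filament of the nuclear pore basket, measured 41.6 to 55.01 CPM against 64.4 to 106 CPM (-0.78 ± 0.10, adjusted p = 3.1e-05). Rrbp1 (chromosome 2, 143947395 to 144011296), which anchors ribosomes and mRNA to the endoplasmic reticulum, measured 77.1 to 151 CPM (median 94.4) against 175 to 234 CPM (median 199.5). In all 3 genes no Abstinence library reached the lowest Maintenance library. Rrbp1 fell by 1.00 ± 0.10 (adjusted p = 3.9e-06), the second smallest p of the comparison. Of 25 nuclear pore genes Tpr was the 1 that fell (background 0.552%) and 0 rose (13 of the 25 below 0). Eif4a2, an RNA helicase of translation initiation, measured 219 to 287 CPM and 284 to 349 CPM (-0.34 ± 0.07, adjusted p = 0.0101). With Eif3c, a subunit of the initiation factor that loads ribosomes (-0.22 ± 0.05, adjusted p = 0.0407), it made 2 lower genes of 25 translation factors (background 0.552%). The Eif3c call ended without Abstinence 2, 3, 4 or 6 (adjusted p 0.0542 to 0.115).

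**Figure D4:**
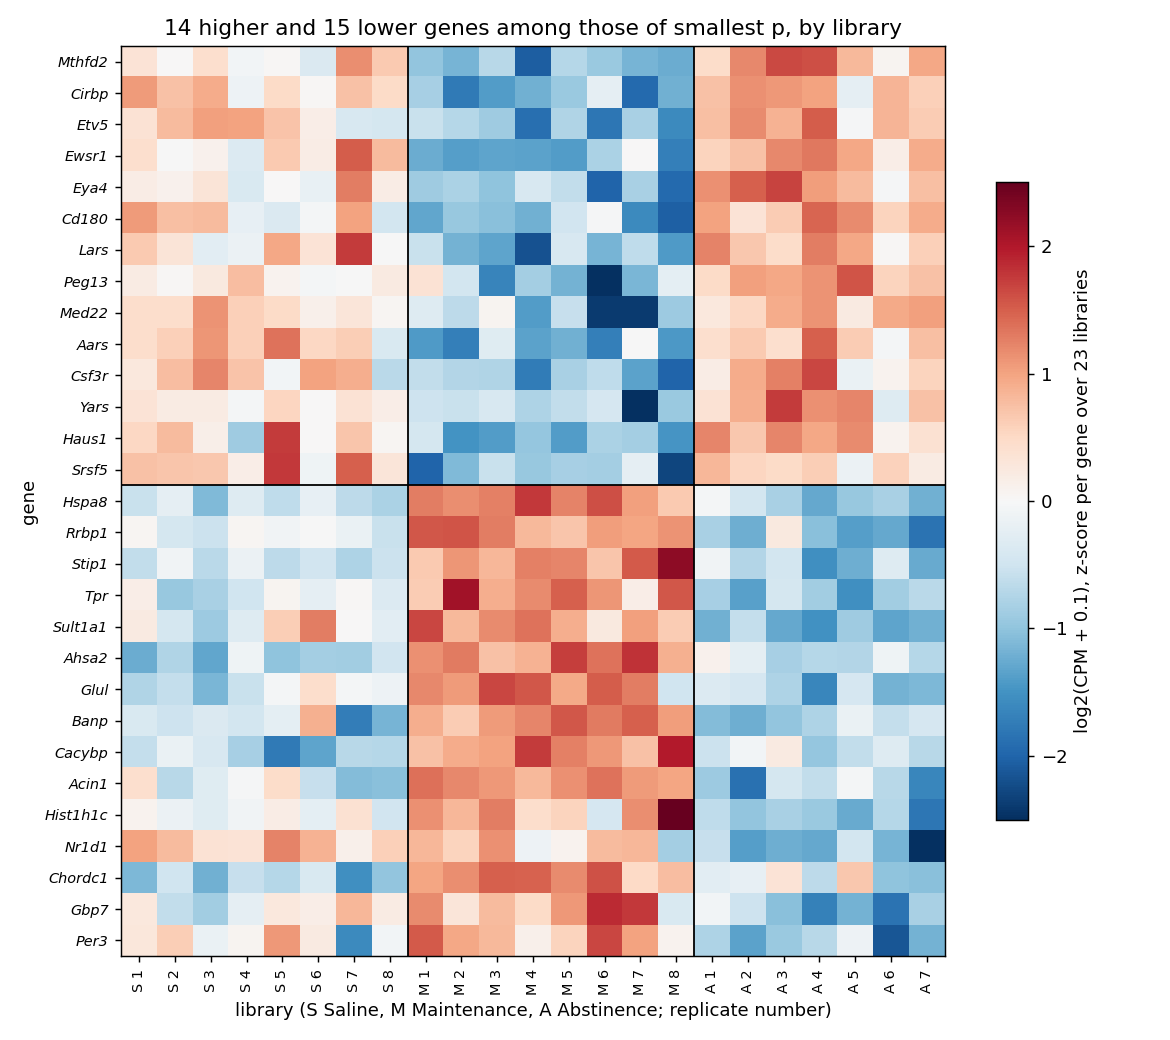
Rows are 14 higher and 15 lower genes among those of smallest p, and columns the 23 libraries (8 Saline, 8 Maintenance, 7 Abstinence). Colour gives the z-score per gene of log2(CPM + 0.1), red above and blue below the gene's mean over all libraries. The Maintenance block is mainly blue in the upper 14 rows and red in the lower 15 for most genes, with exceptions in single libraries such as Hist1h1c in Maintenance 6.

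Mthfd2 and Phgdh of one-carbon metabolism and 4 of 20 cytosolic tRNA-charging enzymes rose in Abstinence. Mthfd2 (chromosome 6, 83305704 to 83326011), a mitochondrial enzyme that passes folate-bound carbon units from serine toward purine synthesis, measured 23.1 to 57.6 CPM (median 39.0) in Abstinence and 6.68 to 14.9 CPM (median 11.8) in Maintenance. The groups lay far apart, with the Saline median at 24.8 CPM. Mthfd2 rose 3.44-fold (log2 1.78 ± 0.20, adjusted p = 1.71e-05). Phgdh (chromosome 3, 98313171 to 98339969), which starts serine synthesis, measured 110 to 175 CPM against 94.7 to 129 CPM (0.38 ± 0.09, adjusted p = 0.0294). Its ranges overlapped, and the call ended without Maintenance 6 or 7 or Abstinence 2, 3, 4 or 7 (adjusted p 0.0543 to 0.0952). Of 13 genes of serine synthesis and folate metabolism these 2 rose (background 0.397%) and 0 fell, with a median of 0.19. The median was 0.38 without Maintenance 8, 0.35 without Maintenance 1 and 0.31 without Abstinence 7. Without Maintenance 6, 7 and 8, 1 rose. Shmt2, the mitochondrial enzyme that splits serine, measured 26.2 to 33.8 CPM and 15.0 to 27.96 CPM (0.49 ± 0.15, adjusted p = 0.115), and Psat1, the next enzyme after Phgdh, 49.9 to 76.9 CPM and 40.9 to 84.9 CPM (adjusted p = 0.999).

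Aminoacyl-tRNA synthetases join amino acids to their tRNAs. Of 20 cytosolic synthetase genes 4 rose (background 0.397%) and 0 fell, while the median was 0.03 and 10 of the 20 were below 0. Lars, for leucine, measured 82.1 to 106 CPM in Abstinence and 52.5 to 75.3 CPM in Maintenance, with no overlap (0.54 ± 0.09, adjusted p = 0.00195). Aars (chromosome 8, 111027778 to 111055569), for alanine, measured 140 to 174 CPM and 110 to 141 CPM (0.36 ± 0.07, adjusted p = 0.00564). The lowest Abstinence library and the highest Maintenance library of Aars lay side by side, and its Saline median was 153 CPM. Yars, for tyrosine, rose from 29.2 to 64.4 CPM to 65.6 to 115 CPM, without overlap (0.67 ± 0.13, adjusted p = 0.00638). Mars, for methionine, measured 63.7 to 114 CPM and 45.0 to 78.6 CPM (0.66 ± 0.13, adjusted p = 0.0113). With the Saline libraries left out of the fit, Yars (0.0573) and Mars (0.0603) did not pass. The 4 calls were also made without Maintenance 6, 7 and 8. Among 20 ATF4 targets and amino acid transporters, the wider set that follows amino acid shortage, 0 passed (median 0.15). That count covers the listed genes only, and the called synthetase and one-carbon genes above were not among them. Slc7a8 (adjusted p = 0.0421) and Aldh18a1 (adjusted p = 0.0247), also outside the list, were called higher. Leaving out any 1 of 12 libraries ended the Slc7a8 call, and any 1 of 4 the Aldh18a1 call. Both were picked after their values were seen and are not counted among the called genes described by role.

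ATF4 binds C/EBP-ATF response elements, searched here as TGATGNAA on either strand. Aars and Yars are shown because they held it among the 4 genes of both lists that rose and had an entry. Over 22 such genes with an entry, 5 held it (Aars, Gars, Iars, Tars and Yars), and 4.51% of all genes with an entry did. Gars, Iars and Tars did not pass, so the letters were found in called and uncalled genes alike. The Aars window belongs to a start site inside the gene span given above, not to its first base. Capitals mark the matches. Those of Aars (chr8:111033592-111033891, plus strand, RefSeq, GRCm38.p6) read as the reverse complement and begin at -112 and 9, and that of Yars (chr4:129189653-129189952, plus strand) begins at 3 from the start site.
Aars: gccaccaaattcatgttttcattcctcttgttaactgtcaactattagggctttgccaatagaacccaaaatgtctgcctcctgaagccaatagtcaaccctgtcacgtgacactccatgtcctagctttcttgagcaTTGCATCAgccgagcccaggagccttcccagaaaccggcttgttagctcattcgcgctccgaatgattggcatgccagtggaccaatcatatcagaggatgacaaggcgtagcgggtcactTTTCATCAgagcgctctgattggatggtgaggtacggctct
Yars: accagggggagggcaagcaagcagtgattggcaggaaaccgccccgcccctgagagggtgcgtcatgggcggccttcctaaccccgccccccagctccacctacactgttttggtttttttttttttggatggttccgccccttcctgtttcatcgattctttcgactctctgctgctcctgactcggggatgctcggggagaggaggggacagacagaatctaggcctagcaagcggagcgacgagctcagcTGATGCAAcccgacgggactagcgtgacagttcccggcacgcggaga

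Translation genes outside these lists showed few calls. Cytosolic ribosomal protein genes gave 0 calls among 79, although 78 of them had a fold change above 0 (-0.03 to 0.45, median 0.20). The median was 0.18 with RLE and 0.20 with upper-quartile scaling. It was 0.11 without Abstinence 2, 0.12 without Maintenance 7, 0.07 without Maintenance 6 and 7, and 0.06 without Maintenance 6, 7 and 8. Nuclear genes of the respiratory chain gave 0 calls among 60, with 51 below 0 and a median of -0.11. That median turned to 0.08 without Maintenance 8 and was -0.19 without Maintenance 7, so it gives no direction.

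Genes of myeloid signalling and identity changed one at a time (background 0.397% higher and 0.552% lower), and single calls give no result about a list. Etv5 (chromosome 16, 22381313 to 22439570), an ETS transcription factor induced by ERK signalling, measured 119 to 185 CPM (median 154) in Abstinence and 69.7 to 102 CPM (median 93.9) in Maintenance. The groups did not overlap (0.81 ± 0.11, adjusted p = 0.00013). Of 15 ERK feedback and ETS genes Etv5 alone passed. Csf3r (chromosome 4, 126023441 to 126044975), the receptor for G-CSF, measured 244 to 332 CPM and 180 to 227 CPM, again with no overlap (0.42 ± 0.08, adjusted p = 0.00564). Its Saline median was 285 CPM. Csf3r was the 1 gene of 7 colony-stimulating factor receptors that rose and 0 fell. Csf3r is also a neutrophil marker. The summed CPM of 16 neutrophil markers, Csf3r among them, was 259 to 448 in Abstinence and 197 to 417 in Maintenance. Much of that sum was Csf3r, so it is no separate measure of neutrophils. Of the 12 markers that could be tested Csf3r was the 1 that passed. Among the 12, 3 had a fold change above 0 and 8 below. Their median was -0.34, and -0.92 to -0.16 with 1 library left out. Csf1r, the receptor that microglia need to survive, measured 4404 to 6437 and 3782 to 5570 CPM (0.22 ± 0.10, adjusted p = 0.363).

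Of 19 Toll-like receptors and co-receptors 1 rose, 1 fell (background 0.397% and 0.552%) and 17 did not pass. Cd180 (chromosome 13, 102693547 to 102706631), a Toll-like relative at the cell surface, measured 89.2 to 115.5 CPM in Abstinence and 50.8 to 81.7 CPM in Maintenance (0.65 ± 0.10, adjusted p = 0.000608). Tlr7 (chromosome X, 167303380 to 167330574), which senses single-stranded RNA in endosomes, measured 186 to 243 CPM in Abstinence and 244 to 353 CPM in Maintenance (-0.48 ± 0.09, adjusted p = 0.00955). Both genes had separate groups, in opposite directions. For Cd180 the Saline median was 89.7 CPM. The Saline median of Tlr7 was 280.0 CPM, and Maintenance differed from Saline by 0.06 (adjusted p = 0.903) where Abstinence differed by -0.42 (adjusted p = 0.189). Fcgr3 (chromosome 1, 171051169 to 171065915), a low-affinity receptor for IgG, measured 3048 to 3330 CPM and 3009 to 4479 CPM (-0.35 ± 0.07, adjusted p = 0.0103). Its Abstinence libraries were tightly grouped within the Maintenance range, yet all 7 lay below the Maintenance median of 4199 CPM. Of 20 phagocytosis and Fc receptor genes it was the 1 that fell (background 0.552%).

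Apoe (chromosome 7, 19696244 to 19701310), a lipid carrier that rises in disease-associated microglia, measured 1102 to 1618 CPM (median 1303) in Abstinence and 1589 to 2848 CPM (median 1874) in Maintenance. The ranges met at their edges, and Apoe fell by 0.63 ± 0.12 (adjusted p = 0.00759). It was the 1 gene that changed among 24 disease-associated microglia genes (background 0.949%), 15 of which were above 0 (median 0.06). Homeostatic microglia genes gave 0 calls among 22, 18 of them above 0 (median 0.08). P2ry12 measured 8424 to 10572 and 7468 to 11841 CPM (-0.02 ± 0.08, adjusted p = 0.972), and Cx3cr1 4851 to 5936 and 3945 to 5749 CPM (0.19 ± 0.08, adjusted p = 0.34). Inflammatory cytokines, chemokines and feedback genes of NF-kB gave 0 calls among 29. Il1b stood at 44.0 to 65.6 and 40.1 to 72.8 CPM (adjusted p = 0.984), and Tnf at 154 to 241 and 128 to 254 CPM (adjusted p = 0.947). Immediate early genes gave 0 calls among 24, with Fos at 4692 to 6038 and 3921 to 6167 CPM (adjusted p = 0.968). A p above the threshold does not show that the groups were equal.

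**Figure D5:**
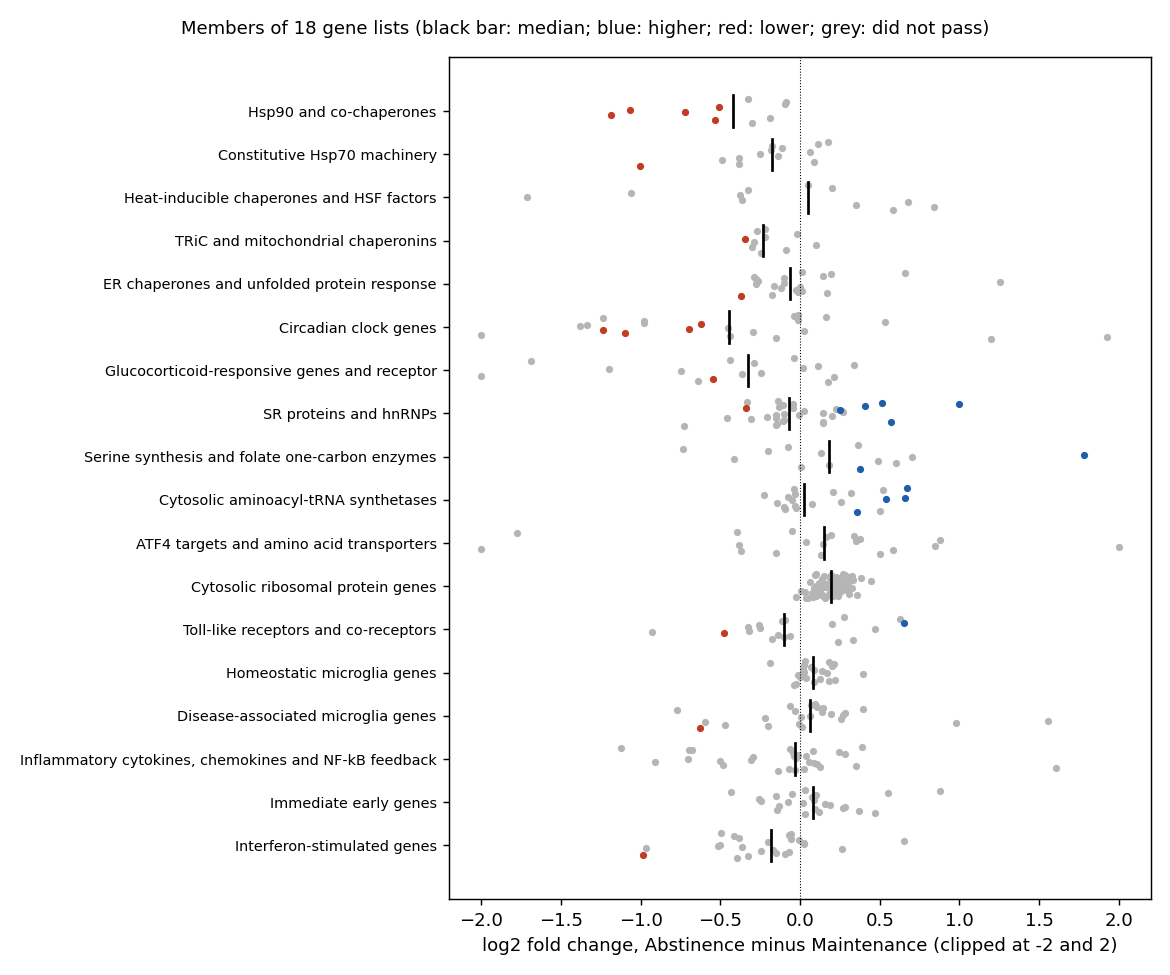
Each point is a tested gene of 1 of 18 lists, placed by its log2 fold change (Abstinence minus Maintenance, horizontal axis), with the median of the list as a black bar and values beyond 2 in size drawn at the edge. Red points fell, blue points rose and grey points did not pass. All 10 genes of the Hsp90 list lie left of 0, and 78 of 79 ribosomal protein genes lie right of it with none passing.

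Other genes with the smallest p came from several functions. Glul (chromosome 1, 153899929 to 153909723), glutamine synthetase, measured 525 to 668 CPM in Abstinence and 647 to 963 CPM in Maintenance (-0.52 ± 0.08, adjusted p = 0.000464). The overlap came from Maintenance 8, at 647 CPM, where the other Maintenance libraries held 845 CPM or more. Sult1a1 (chromosome 7, 126672865 to 126690443), which attaches sulfate to phenols, measured 49.8 to 65.3 CPM and 83.6 to 127 CPM, with separate groups (-0.91 ± 0.11, adjusted p = 3.1e-05). Banp (chromosome 8, 121947972 to 122029260), a DNA-binding nuclear protein, was separate too, at 12.0 to 18.4 and 25.3 to 36.6 CPM (-1.09 ± 0.16, adjusted p = 0.000503). The linker histone gene Hist1h1c measured 11.1 to 15.6 CPM in Abstinence and 16.6 to 41.9 CPM in Maintenance (-0.88 ± 0.15, adjusted p = 0.00195). Gbp7, an interferon-induced GTPase, measured 72.6 to 105 CPM and 98.7 to 158 CPM (-0.59 ± 0.10, adjusted p = 0.00255). Crebbp, a histone acetyltransferase, was the 1 gene of 53 histone and chromatin regulators that changed (background 0.949%). It fell by 0.37 ± 0.08 (adjusted p = 0.0197), and did not pass with the Saline libraries left out of the fit (0.0886).

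Among higher genes, Eya4 (chromosome 10, 23102962 to 23350838), a phosphatase and transcriptional coactivator, measured 33.5 to 58.9 CPM in Abstinence and 17.6 to 29.8 CPM in Maintenance, with no overlap (0.96 ± 0.13, adjusted p = 0.000197). Med22, a subunit of the Mediator complex, measured 97.2 to 124 and 48.1 to 93.7 CPM (0.66 ± 0.12, adjusted p = 0.0032). Haus1, a subunit of the augmin complex on spindle microtubules, measured 16.3 to 21.8 and 10.9 to 14.3 CPM (0.70 ± 0.13, adjusted p = 0.00661). These were separate in both cases. Peg13 (chromosome 15, 72805602 to 72810324), an imprinted noncoding RNA, measured 40.8 to 57.0 CPM and 14.9 to 39.6 CPM (0.80 ± 0.14, adjusted p = 0.00267). It lies within Trappc9, which did not pass (0.33, adjusted p = 0.72). Strand is not stated for the counts, so reads of overlapping genes cannot be told apart where they overlap. The named genes that passed included 15 with such a tested neighbour, and 0 of the neighbours passed. Vasp, a regulator of actin filament growth, measured 41.7 to 94.7 and 20.9 to 47.8 CPM (0.82 ± 0.17, adjusted p = 0.0127), but did not pass with the Saline libraries left out of the fit (0.059).

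Further lists held 1 or 2 called genes, beside 0.397% higher and 0.552% lower over all genes tested. So few calls give no result about a list. Vasp passed with any 1 of the 23 libraries left out, and the other calls named in this group were lost without some single libraries. Vasp and Cap1 were the 2 of 41 actin genes that rose. Cap1, which recycles actin monomers (0.62 ± 0.14, adjusted p = 0.0302), was lost without Maintenance 1, 2 or 4 or Abstinence 2, 3, 4, 6 or 7 (up to 0.101). Pfkl, the phosphofructokinase of liver type (-0.40 ± 0.10, adjusted p = 0.037), was 1 of 2 lower genes among 30 of glycolysis and hypoxia, and was lost without Maintenance 4, 6 or 7 or Abstinence 1, 2, 3, 4, 6 or 7 (up to 0.0895). Catalase (Cat) was the 1 lower gene of 23 antioxidant genes (-0.33 ± 0.08, adjusted p = 0.0399) and was lost without Maintenance 4, 5 or 7 or Abstinence 3, 4, 5, 6 or 7 (up to 0.105). Ifit3 was the 1 lower gene of 24 interferon-stimulated genes, 20 of which were below 0 (-0.98 ± 0.24, adjusted p = 0.0447). Leaving out any 1 of 12 libraries ended its call (Saline 1 to 4, Maintenance 6 and 7, and all of Abstinence but replicate 1, up to 0.115). P4ha1, a prolyl hydroxylase of collagen and the other lower gene of glycolysis and hypoxia (-0.33 ± 0.08, adjusted p = 0.0475), was lost without Maintenance 1, 2, 4, 5 or 6 or any 1 of the 7 Abstinence libraries (up to 0.109). Gusb, a lysosomal glucuronidase and the 1 higher gene of 38 lysosomal genes (0.32 ± 0.08, adjusted p = 0.0426), was lost without any 1 of 17 libraries, the 7 of Abstinence among them (up to 0.106). Pik3c3, the lipid kinase that starts autophagosomes and the 1 lower gene of 24 autophagy genes (-0.42 ± 0.10, adjusted p = 0.0363), was lost without Maintenance 1 or Abstinence 1, 2, 3, 4 or 6 (up to 0.102). Ubb, a polyubiquitin gene (-0.29 ± 0.06, adjusted p = 0.0247), was lost without Abstinence 4 (0.057) or 5 (0.0522).

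Markers of other cell types differed between libraries, and their part in the results was not tested. In Maintenance 8 the choroid plexus and ependymal markers (76552 CPM) summed to more than the 22 homeostatic microglia genes (69034 CPM). Of 17 oligodendrocyte markers 0 passed, with summed levels of 5684 to 9398 CPM in Abstinence and 5490 to 10647 CPM in Maintenance. The sums of 18 striatal neuron markers were 92.8 to 228 CPM and 102 to 435 CPM, with 0 of 18 passing and 15 above 0 (median log2 fold change 0.61). The 435 CPM was Maintenance 8, where Ppp1r1b alone held 370 CPM and 5 of the 18 markers had no count. The next highest Maintenance library was at 176 CPM. Of 14 border-associated macrophage markers 0 passed and 13 were below 0 (median -0.17), with sums of 465.9 to 556 CPM and 465.5 to 734 CPM. Endothelial markers summed to 365 to 1337 CPM in Abstinence, to 2492 CPM in Maintenance 6 and to 1564 CPM in Maintenance 7. Those of mural cells and fibroblasts summed to 193.5 to 650 CPM in Abstinence and to 1188 and 971 CPM in the same 2 Maintenance libraries, which were the highest of the 15 libraries for both lists. Erythrocyte markers summed to 104 to 799 CPM (median 464) in Abstinence and 113 to 545 CPM (median 150) in Maintenance, and oligodendrocyte precursor markers to 31.0 to 70.0 CPM (median 39.3) and 5.14 to 49.3 CPM (median 18.7). In both lists the medians were higher in Abstinence, the ranges overlapped, and 0 genes passed. In RNA from pooled cells, fewer cells of a type and less RNA per cell cannot be told apart. Enpp2, a gene of the choroid plexus, stood at 31127 CPM in Maintenance 8, at 104 to 318 CPM in the other 7, and did not pass (adjusted p = 0.119). Neuromodulator and sigma receptor genes, through which a stimulant could act on the cells, gave 0 calls among the 25 of 32 that could be tested.

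Of the called genes, 3 had no count in any library of 1 group and were picked out for that reason after their values were seen. Rgs6, a regulator of G-protein signalling, had 0 counts in the 8 Maintenance libraries, 606 counts summed over Abstinence, in 5 of 7 libraries, and 389 over Saline, in 7 of 8. LOC105246089 had 0 counts in Maintenance and 186 in Abstinence, in 5 of 7 libraries. F830016B08Rik had 0 counts in Abstinence and 693 in Maintenance, in 5 of 8. A count of 0 over a group allows up to 3 counts, or 0.00491 CPM in Maintenance and 0.00521 CPM in Abstinence, by counting error alone. Rgs6 did not pass with voom and quality weights (adjusted p = 0.293) or with the replicate number as a block in the edgeR fit (0.119).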

How the data were processed

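RNA was sequenced from isolated striatal microglia in 8 Saline, 8 Maintenance and 7 Abstinence libraries, prepared with a low-input kit per the labels' protocols. The authors deposited whole-number counts per gene for all 23 libraries. Per the submitters' processing notes the tools, with no role or order stated, included DESeq2 1.38.3, StringTie 2.1.5 and STAR 2.7.10a on the mouse build mm10, as well as cutadapt 1.18 and Trim Galore 0.6.7. Settings and strand handling are not given in the sources used here. A second deposited table held 17 of the libraries, and 0 of its 611592 values differed from the first. It left out Maintenance 6, 7 and 8 and Saline 5, 6 and 8.

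Of 35976 genes, 16121 passed edgeR's filter (minimum count 10, minimum total 15). Counts were scaled by TMM factors and fitted with edgeR 4.0.16 (R 4.3.3), using the quasi-likelihood test with robust dispersion and group as the only term, on all 23 libraries, so that Saline shares the estimate of the spread. Genes were called at a Benjamini-Hochberg adjusted p under 0.05. SE values were derived from the fold change and its F statistic. Named genes were, in each direction, the 15 called genes of smallest p whose log2 CPM averaged 2 or more and whose medians differed the same way as the fitted change, leaving out symbols of clones or predicted genes. To these were added up to 4 called members of each list by p, the 2 members of highest CPM in lists without a call, and a set of named chaperone, clock, cold-response and microglial genes whatever their p. Other uncalled members named here (Bag3, Dbp, Arntl, Shmt2, Psat1 and the like), and list calls beyond the 4 of smallest p, were picked after their values were seen. The members and lists were chosen with earlier results of these data known. Gene positions and promoters are RefSeq's for GRCm38.p6, of which 32501 symbols matched. The script was tested on simulated data. Alternatives were RLE and upper-quartile factors, other filters, DESeq2 1.42.0, limma 3.58.1 voom, the replicate block, fewer groups and libraries left out. The values of 1 called gene are not reported here.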

Additional observations from a re-analysis of the deposited data

Results flagged for a closer look

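Single libraries stood far from the rest of their group for 16 of 176 sets of values checked, where chance alone marks about 1 set in 20. Among them, 4 were in Maintenance 6, 3 in Maintenance 7 and 3 in Maintenance 8. In Maintenance 6, Cct4 was high at 361 CPM and Eif4a2 at 349 CPM, while Ptbp1 was low at 58.3 CPM and Bag3 at 17.4 CPM. In Maintenance 7, Hnrnpm was high at 290.0 CPM, Yars was low at 29.2 CPM, and Arntl was at 0 CPM. Maintenance 8 was low for Glul at 647 CPM and high for Enpp2 at 31127 CPM and for Ppp1r1b, listed as a marker of striatal neurons, at 370 CPM. Of the 18 striatal neuron markers, 5 had no count in that library, so Ppp1r1b does not speak for the list. Tsc22d3 was high in Maintenance 3 at 1226 CPM, and Mthfd2 low in Maintenance 4 at 6.68 CPM. In Abstinence 5, Cirbp was low at 50.7 CPM and the number of genes with a count was low at 14727. Abstinence 7 was low for P4ha1 at 269 CPM, and Abstinence 2 for Arntl at 7.87 CPM.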

How the results depend on the processing

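Against 153 called genes (64 higher, 89 lower), RLE factors gave 190, upper-quartile factors 124, no filter 130 and a non-robust fit 148. Keeping only genes at 1 CPM or more throughout a group gave 242 (151 lower), DESeq2 529 (212 higher, 317 lower) and voom with quality weights 331 (144 higher, 187 lower). Fitting only the 2 compared groups gave 64 (22 higher, 42 lower). That fit kept 36 of the 57 called genes described by role and lost 21. Among the lost were Hsp90ab1 (adjusted p = 0.103), Phgdh (0.119), Ptbp1 (0.124) and Tef (0.0886). The 17 libraries of the second table gave 238 (169 lower), and leaving out Maintenance 6, 7 and 8 gave 138 lower. Higher genes made up 41.8% of calls, 29.0% with the 17 libraries and 30.7% without Maintenance 6, 7 and 8. Leaving out 1 library at a time gave 89 to 265 calls, 36 to 96 higher and 53 to 180 lower. The cause of these shifts was not tested. The labels do not say whether shared replicate numbers pair the libraries. Over all genes, correlations of 7 same-numbered pairs were -0.07 to 0.02, and 0 Abstinence libraries matched their own number best. These values do not settle whether the numbers mark pairs. With the number as a replicate block 126 genes were called, 42 of them higher, and with the replicate block on only the 2 groups 18 (4 higher, 14 lower). Of the 57 called genes described by role, the first of these fits kept 46 and the second 15. No gene described as changed turned direction in these alternatives, but list medians moved with single libraries and some turned sign. Without 1 library, nuclear respiratory genes ran from -0.19 to 0.08, nuclear pore genes from -0.07 to 0.04, and ERK and ETS genes from -0.02 to 0.17. Oligodendrocyte markers ran from -0.06 to 0.12, cytokine genes from -0.08 to 0.03, and homeostatic microglia genes from 0.02 to 0.10. Medians further from 0 moved too. That of choroid plexus and ependymal markers (-4.37) turned to 1.14 without Maintenance 8. That of endothelial markers (-0.28) turned to 0.04 without Maintenance 6. Mural cell and fibroblast markers ran from -0.49 to -0.02, oligodendrocyte precursor markers from 0.31 to 1.03 and interferon-stimulated genes from -0.26 to -0.09. Of the 57 called genes described by role, 42 were called with any 1 library left out, and 15 in all alternatives. Genes at a few CPM or less could hold 0 counts in some libraries, as Rgs6 did in Abstinence (0 to 280 counts). The cause of such zeros was not tested.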
